A study of Caenorhabditis elegans with 15 samples.

Results

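The mitochondrial ribosomal protein genes of Caenorhabditis elegans were taken as the genes named mrpl- or mrps- followed by a digit, which were 71 of the 20191 genes in the count table. The mrpl genes are named for the large subunit and numbered 42, and the mrps genes are named for the small subunit and numbered 29. Transcripts were counted by RNA sequencing in whole worms on day 1 of adulthood, grown in synchronized populations without stress. There were 5 libraries of each of 3 strains: wild type (N2), the mutant fndc-1(rny14), and the double mutant atfs-1(tm4525);fndc-1(rny14). Both mutants share the fndc-1 allele. No strain carries the atfs-1 allele alone, so what that allele does by itself and what it does on top of fndc-1 cannot be told apart.

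The mitochondrial ribosome translates the few proteins encoded by the mitochondrial genome, which are subunits of the respiratory chain and of the ATP synthase. Its proteins are encoded in the nucleus, made in the cytosol and imported, so both subunits depend on coordinated nuclear expression. Some have a counterpart in the bacterial ribosome, while others were gained in mitochondria. In worms, lowered expression of mrps-5 is a standard way to unbalance nuclear-encoded and mitochondria-encoded proteins, and it activates the mitochondrial unfolded protein response. ATFS-1 is the transcription factor of that response, and FNDC-1 is the worm relative of the mammalian mitophagy receptor FUNDC1. The comparisons ask what the loss of fndc-1, and of fndc-1 with the atfs-1 allele, does to the mitoribosomal protein transcripts and whether the subunits move together.

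Total counts ranged from 46984106 to 61921123 per library, and levels are given as CPM, counts relative to the library total after scaling of library sizes. The targeted gene fndc-1 lay between 36.8 and 47.2 CPM in the wild-type libraries, between 7.26 and 7.53 CPM in fndc-1 and between 7.04 and 10.2 CPM in the double mutant. Transcripts of atfs-1 remained in the double mutant, with a log2 fold change of -0.46 against wild type (edgeR quasi-likelihood test, adjusted p = 0.0004443). The libraries hold whole animals, so fewer cells of a type and less RNA per cell cannot be told apart. Summed CPM of 28 sperm genes ranged from 37.9 to 339 in wild type, from 107 to 513 in fndc-1 and from 204 to 1016 in the double mutant. Double-mutant library 2 stood apart for the genes described here. Counts, medians and the larger fold changes of the mitoribosomal protein genes in the double mutant are therefore also given without it. Fold changes of other gene lists are not.

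All 71 genes were expressed well above the limit of detection. The lowest mean count over the 15 libraries was 944, the lowest count in any library was 711, and each of the 71 passed the filter on low counts that left 15032 genes for testing. Matched by name to the Ensembl 115 annotation of WBcel235, 70 had a position and an exon length, and mrpl-14 did not. The genes were short, with a median exon length of 755 bases, from 309 in mrpl-36 to 2164 in mrps-31, against 1158 for all protein-coding genes in the table. Chromosome III held 22 of the 71, or 31%, against 15.4% of all genes tested. Chromosome X held none of them, against 14.2% of all genes tested.

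Many lay close behind or before another gene in the same orientation, an arrangement that in C. elegans is typical of operons. A protein-coding gene on the same strand within 500 bases was annotated for 43 of the 70, or 61.4%, against 31.1% of the 19071 protein-coding genes in the table. The share was 23 of 41 large-subunit genes and 20 of 29 small-subunit genes. In a few places the neighbours were themselves parts of the mitoribosome. The gene mrps-2 lay 105 bases from mrpl-4 on the same strand of chromosome V, and mrps-22 lay 105 bases from dap-3 on chromosome II. In mammals the dap-3 relative is a small-subunit protein, but its name is outside the naming rule used here. Another pair, mrps-24 and mrpl-1, lay 343 bases apart on opposite strands of chromosome IV. Exons of 20 of the 70 genes overlapped exons of another protein-coding gene, and how reads in such overlaps were assigned is not given in the sources used here, so those counts are uncertain.

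In wild type, the subunits were expressed at like levels per length. The median over large-subunit genes was 48.9 CPM per kilobase of exon, and the median over small-subunit genes was 50.7 CPM per kilobase. Every one of the 70 genes with a length lay above the median of all genes tested, 6.42 CPM per kilobase. Levels within a subunit were spread over 4.89-fold for the large subunit, from 18.8 to 91.7 CPM per kilobase, and over 6.37-fold for the small subunit, from 12.02 to 76.6 CPM per kilobase.

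**Figure D1:**
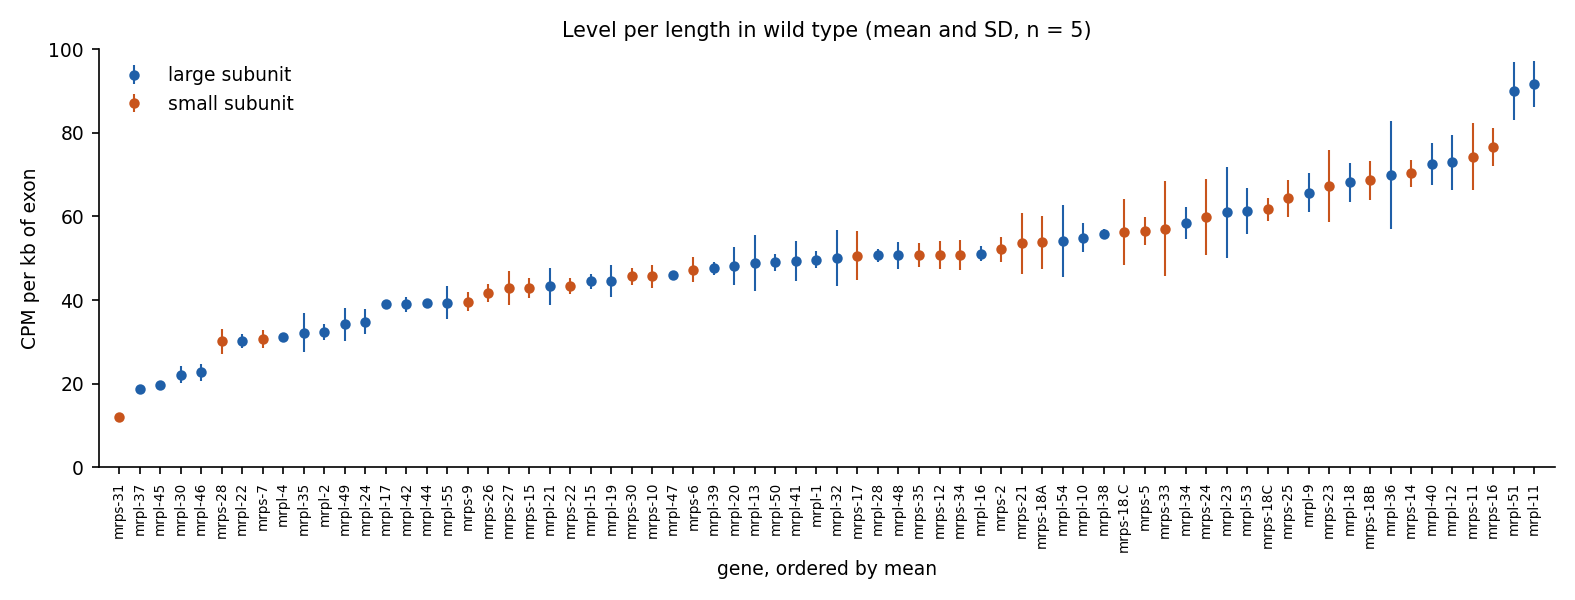
Level of 70 mitoribosomal protein genes in wild type, as CPM per kilobase of exon on the vertical axis, ordered by mean along the horizontal axis; points are means and bars are SD over 5 libraries, blue for the large and orange for the small subunit. The 2 subunits are mixed along the order, from mrps-31 at 12.02 to mrpl-11 at 91.7 CPM per kilobase.

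At the top of the large subunit stood mrpl-11, whose bacterial counterpart lies at the base of the factor-binding stalk, with 91.7 ± 5.47 CPM per kilobase (SD, n = 5). Next came mrpl-51, a protein without a bacterial counterpart in mammals, with 90.03 ± 6.88. The stalk protein gene mrpl-12 followed at 72.9 ± 6.66, and mrpl-40 at 72.6 ± 5.01. The first pair differed by less than its SDs, as did the second, while the pairs were separated by more than their SDs. The lowest large-subunit genes were mrpl-30 at 22.1 ± 2.02, mrpl-45 at 19.6 ± 0.955 and mrpl-37 at 18.8 ± 0.619 CPM per kilobase. In mammals mrpl-45 and mrpl-37 have relatives that are specific to mitochondria, and mrpl-30 has a bacterial counterpart.

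In the small subunit, mrps-16 had the highest level per length in wild type, 76.6 ± 4.55 CPM per kilobase. It was followed by mrps-11 at 74.3 ± 8.03, mrps-14 at 70.3 ± 3.21 and mrps-18B at 68.6 ± 4.57, and each of these lay within the SDs of its neighbour in the order. All of these are named for proteins of the bacterial small subunit. At the bottom, mrps-7 at 30.7 ± 2.21 and mrps-28 at 30.1 ± 2.94 did not differ beyond their SDs, and mrps-31, the longest of the genes, stood apart at 12.02 ± 0.985 CPM per kilobase. Exons of mrps-16 and mrps-11 overlap those of another gene. The 41 genes with a length classed as having a bacterial counterpart had a median of 49.7 CPM per kilobase and the 25 classed as specific to mitochondria a median of 49.05, by the mammalian mitoribosome.

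Summed over the large subunit, CPM was 1759, 1618, 1729, 1611 and 1551 in the wild-type libraries, 1574, 1581, 1552, 1686 and 1696 in fndc-1, and 1733, 1989, 1672, 1721 and 1640 in the double mutant. The 3 strains overlapped, and library 2 of the double mutant was the highest of the 15. Over the small subunit, the sums were 1406, 1318, 1386, 1281 and 1246 in wild type, 1281, 1263, 1250, 1345 and 1378 in fndc-1, and 1410, 1569, 1362, 1397 and 1325 in the double mutant. The same libraries were high and low as for the large subunit.

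The ratio of the subunits moved far less than the sums did. Summed per length, the large subunit exceeded the small by 1.33 ± 0.0121 in wild type, 1.33 ± 0.0117 in fndc-1 and 1.31 ± 0.00515 in the double mutant (SD, n = 5 each), with 41 genes set against 29. Over all 15 libraries the ratio ran from 1.31 to 1.34, a spread of 1.03-fold. The sums per length that it divides spread over 1.35-fold for the large subunit and 1.37-fold for the small. Summed CPM without length spread over 1.28-fold and 1.26-fold. Taken as a ratio of medians over genes, large to small spread over 1.10-fold. The strains overlapped in the ratio of sums per length. A ratio of transcripts does not measure the ratio of assembled subunits, and the size of such a ratio depends on which genes are counted on each side.

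**Figure D2:**
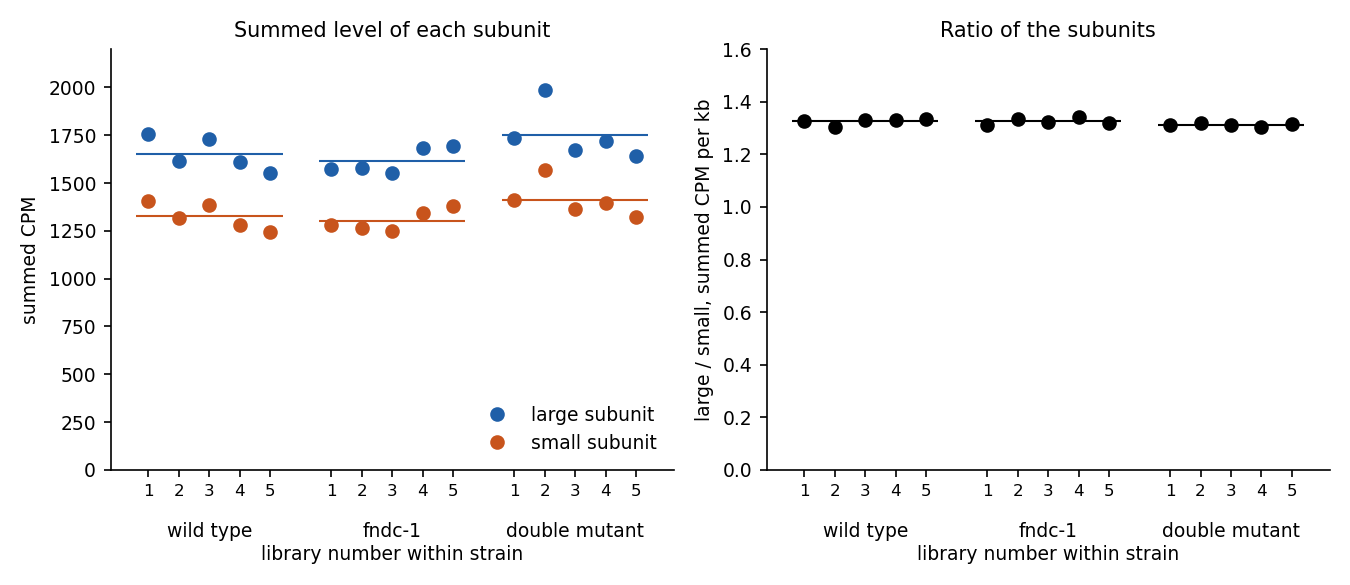
Left, summed CPM of the 42 large-subunit genes (blue) and of the 29 small-subunit genes (orange) in each of the 15 libraries; right, the large to small ratio of CPM summed per kilobase of exon; lines are strain means. Both sums peak in double-mutant library 2, at 1989 and 1569 CPM, while the ratio stays between 1.31 and 1.34 in every library.

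Against wild type, the fndc-1 mutant showed no mitoribosomal protein gene past the threshold of an adjusted p of 0.05 (edgeR quasi-likelihood test with Benjamini-Hochberg adjustment over all genes), where 1.87% of all genes tested were called. At an unadjusted p under 0.05 there were 7 of the 71, and this was met by 14.9% of all genes tested. That count ran from 1, as without wild-type library 1, to 15, without double-mutant library 2, as each of the 15 libraries was left out in turn. DESeq2 and limma-voom also called 0. The fitted log2 fold change lay above 0 for 27 of the 71, against 50.6% of all genes. Of the 3754 genes with a mean CPM in the range of the 71, 40.1% lay above 0, with a median of -0.03. The median was -0.04 for the large subunit and -0.06 for the small, beside 0.0034 for all genes tested. Without wild-type library 1 the medians of large subunit, small subunit and all genes were -0.0083, -0.02 and -0.0043. Without wild-type library 3 those of the subunits were -0.02 and -0.03. Wild type and fndc-1 did not overlap for mrpl-47, which was higher in fndc-1, and for mrpl-39, which was lower, against 8.03% of all genes in either direction. For 70 of the 71 the 95% interval of the fold change lay within 1.5-fold in either direction, so a change beyond 1.5-fold lay outside the interval for those genes.

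The lowest adjusted p against wild type belonged to mrpl-15, a large-subunit gene with a bacterial counterpart. Its CPM was 47.6, 43.9, 47.8, 45.4 and 44.2 in wild type and 47.8, 49.6, 47.3, 52.3 and 52.9 in fndc-1. The fndc-1 library at 47.3 CPM was the one that overlapped wild type, and the log2 fold change was 0.13 (SE 0.052, adjusted p = 0.2619). For mrpl-47, relative of bacterial L29, the wild-type libraries lay at 42.6, 42.9, 43.5, 42.8 and 41.04 CPM and those of fndc-1 at 44.3, 44.6, 45.1, 48.3 and 50.4. The ranges stood apart by under 1 CPM, and the log2 fold change was 0.13 (SE 0.073, adjusted p = 0.4598). The other large-subunit value among the highest was mrpl-30 at 0.16, and in the small subunit the highest were mrps-31 at 0.13, mrps-26 at 0.087 and mrps-22 at 0.081, none of which passed the test.

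At the other end, CPM of mrpl-36, the shortest of the genes and the relative of the smallest bacterial large-subunit protein, was 27.8, 19.5, 22.1, 21.6 and 17.04 in wild type and 17.7, 17.5, 16.4, 17.2 and 15.6 in fndc-1. Wild-type library 1 was the highest and wild-type library 5 fell within the fndc-1 range, and the log2 fold change was -0.36 (SE 0.16, adjusted p = 0.3222). CPM of mrps-33, a small-subunit gene specific to mitochondria, was 38.3, 26.3, 29.7, 26.7 and 23.3 in wild type and 25.2, 23.9, 24.7, 22.1 and 24.8 in fndc-1. The log2 fold change was -0.26 (SE 0.15, adjusted p = 0.4627), and again wild-type library 1 was well above the rest. The values for mrps-11, mrps-10, mrpl-21 and mrpl-48 were -0.19 each, and none passed.

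The double mutant had 2 mitoribosomal protein genes past the threshold against wild type, mrpl-30 and mrps-14, both higher. That was 2 of 71 where 4.71% of all genes tested were called, 3.71% in the upward direction, so the share was below that of all genes. At an unadjusted p under 0.05 there were 14 higher and 1 lower, against 13.5% and 7.76% of all genes tested. The fitted log2 fold change lay above 0 for 61 of the 71, against 49.7% of all genes. Of the 3754 genes with a mean CPM in the range of the 71, 30.8% lay above 0. The median was 0.09 for either subunit, beside -0.0023 for all genes tested and -0.09 for genes in that CPM range. The 95% interval lay within 1.5-fold for all 71. Without double-mutant library 2 the count above 0 was 42, and without wild-type library 1 it was 66, with medians of 0.13 and 0.12 for the large and small subunit.

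Markers of other tissues also differed in the same comparison, some higher and some lower. Of 126 cuticle collagen genes tested, 117 lay above 0 with a median log2 fold change of 1.15. Of the 126, 22 were called higher, against 3.71% of all genes tested. Summed CPM of the collagen genes was 12990 to 21700 in wild type, 22177 to 24888 in fndc-1 and 29101 to 43920 in the double mutant. The strains did not overlap in this sum, which was highest in double-mutant library 2 and 29101 to 36717 in the other double-mutant libraries. Gene by gene, 59 of the 126 lay above 0 in fndc-1 against wild type, with a median of -0.05. There 6 were called higher, against 1.18% of all genes tested. In the double mutant against wild type all 4 hypodermis genes lay above 0 with a median of 1.498. Of the 4, 1 was called higher, where 3.71% of all genes tested were. Summed CPM of the hypodermis genes was 589 to 1138 in wild type, 994 to 1331 in fndc-1 and 1265 to 2090 in the double mutant. In the double mutant without library 2 it was 1265 to 1555. All 28 sperm genes tested lay above 0 with a median of 1.57, none called. The median was -0.26 for intestine genes (1 of 6 above 0) and -0.24 for oocyte and eggshell genes (2 of 12). For pharynx genes it was -0.24 (0 of 3) and for germline genes -0.14 (2 of 10). The 6 neuron genes had a median of -0.00051, and all 6 body wall muscle genes lay above 0, with a median of 0.27. None of these was called. The double-mutant fold changes of these lists include library 2 and are not given without it. The part of these tissues in the mitoribosomal protein values was not tested.

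CPM of mrpl-30 was 16.9, 15.5, 18.7, 14.8 and 16.7 in wild type, 17.1, 16.8, 17.5, 20.5 and 20.5 in fndc-1, and 20.1, 24.7, 19.3, 21.9 and 20.7 in the double mutant. Every double-mutant library was above every wild-type library, with library 2 the highest, while the double mutant and fndc-1 overlapped. The rise against wild type was 0.37 on the log2 scale, or 1.29-fold (SE 0.096, 95% interval 0.17 to 0.58, adjusted p = 0.03923). The gene lies on chromosome III at 2406310 to 2410975 (WBcel235, minus strand, 5 exons), and its exons overlap those of strm-1 on the opposite strand by 26 bases. Without double-mutant library 2 the value was 0.30 and the adjusted p 0.05708.

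The gene mrps-14 is a relative of a bacterial small-subunit protein and lies on chromosome II at 10240277 to 10242490 (WBcel235, minus strand, 4 exons), 105 bases from nrde-2. Its CPM was 53.4, 52.6, 54.1, 48.2 and 50.8 in wild type, 53.2, 50.9, 50.8, 55.2 and 57.3 in fndc-1, and 60.6, 76.1, 58.2, 62.3 and 58.1 in the double mutant. All 5 double-mutant libraries lay above all 10 others, and library 2 stood well above the other 4 of its strain. The rise against wild type was 0.28 on the log2 scale, or 1.22-fold (SE 0.075, 95% interval 0.12 to 0.44, adjusted p = 0.04245). Both calls lay close to the threshold. Among 26 other settings of the analysis, mrpl-30 was called in 10 and mrps-14 in 4. With each of the 15 libraries left out in turn, mrpl-30 was called without wild-type library 3, fndc-1 libraries 4 or 5, or double-mutant libraries 1 or 3, and mrps-14 without double-mutant libraries 2 or 3, and neither without any other library.

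Strains did not overlap for 8 of the 71 genes, or 11.3%, all of them with the double mutant above wild type, against 4.42% of all genes tested in that direction. They were mrpl-4, mrpl-15, mrpl-16, mrpl-17, mrpl-30 and mrpl-47 of the large subunit and mrps-14 and mrps-22 of the small. CPM of mrpl-47 in the double mutant was 47.3, 60.7, 47.8, 48.6 and 46.97, with library 2 far above the other 4, and its log2 fold change was 0.24 (adjusted p = 0.07886). CPM of mrps-22, a small-subunit gene specific to mitochondria, was 62.9, 61.8, 65.7, 58.9 and 59.6 in wild type and 70.3, 79.2, 71.6, 72.5 and 67.4 in the double mutant. Its log2 fold change was 0.22 (SE 0.065, adjusted p = 0.06469). Others were mrps-12 at 0.24 and mrpl-24 at 0.23. Without double-mutant library 2 the values were 0.19 for mrps-14, 0.15 for mrpl-47, 0.17 for mrps-22, 0.11 for mrps-12 and 0.16 for mrpl-24. At the low end stood mrpl-51 at -0.16, mrpl-42 at -0.13, mrps-11 at -0.12, mrpl-48 at -0.07 and mrps-35 at -0.01, which were -0.22, -0.12, -0.20, -0.15 and 0.060 without that library. With all libraries, mrpl-30 and mrps-14 alone among the genes named here passed.

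Against fndc-1, the double mutant showed no mitoribosomal protein gene past the threshold, where 0.978% of all genes tested were called. There were 21 of the 71 at an unadjusted p under 0.05, all higher in the double mutant, against 7.77% of all genes tested in that direction. The count was 11 without double-mutant library 2 and also 11 without fndc-1 library 1 or fndc-1 library 2, 12 without fndc-1 library 3, and 11 to 24 over the 15 libraries left out in turn. DESeq2 called 1, mrps-27, and limma-voom called 0. The fitted log2 fold change lay above 0 for 64 of the 71, against 52.3% of all genes. Its median was 0.14 for either subunit, beside 0.017 for all genes tested. For the 3754 genes with a mean CPM in the range of the 71, the share above 0 was 38.2% and the median -0.05. This comparison and that of fndc-1 with wild type use the same fndc-1 libraries.

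The lowest adjusted p was that of mrps-27, whose mammalian relative is an RNA-binding small-subunit protein. Its CPM was 75.5, 62.1, 69.1, 60.1 and 63.3 in wild type, 58.4, 57.9, 60.9, 61.7 and 64.2 in fndc-1, and 74.0, 82.1, 70.4, 72.1 and 70.2 in the double mutant. The double mutant and fndc-1 did not overlap, while wild type overlapped both. The log2 fold change against fndc-1 was 0.28 (SE 0.070, 95% interval 0.13 to 0.43, adjusted p = 0.08252). Its exons overlap those of hinf-1 on the same strand of chromosome I by 105 bases. DESeq2 gave an adjusted p of 0.0443, and the test without wild-type library 1 gave 0.04591.

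Strains did not overlap for 9 of the 71, or 12.7%, all higher in the double mutant than in fndc-1, against 2.67% of all genes tested in that direction. They were mrpl-21, mrpl-36, mrpl-41 and mrpl-49 of the large subunit and mrps-14, mrps-18.C, mrps-27, mrps-28 and mrps-33 of the small. CPM of mrpl-36 in the double mutant was 21.2, 33.4, 18.7, 18.9 and 18.8, and its log2 fold change against fndc-1 was 0.40 (SE 0.16, adjusted p = 0.3774). CPM of mrps-33 was 29.3, 43.8, 25.7, 28.7 and 27.96, with a log2 fold change of 0.37 (SE 0.15, adjusted p = 0.3599). In both genes library 2 was far above the other 4 of its strain. Further values were 0.34 for mrpl-41, 0.31 for mrpl-49 and 0.28 for mrps-28. Without library 2 the 5 values were 0.19 for mrpl-36, 0.20 for mrps-33, 0.18 for mrpl-41, 0.17 for mrpl-49 and 0.16 for mrps-28, and that of mrps-27 was 0.23. The lowest were -0.11 for mrpl-1, -0.096 for mrpl-42, -0.05 for mrps-26 and -0.04 for mrps-31, of which mrps-31 was 0.080 without library 2. None of these passed.

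**Figure D3:**
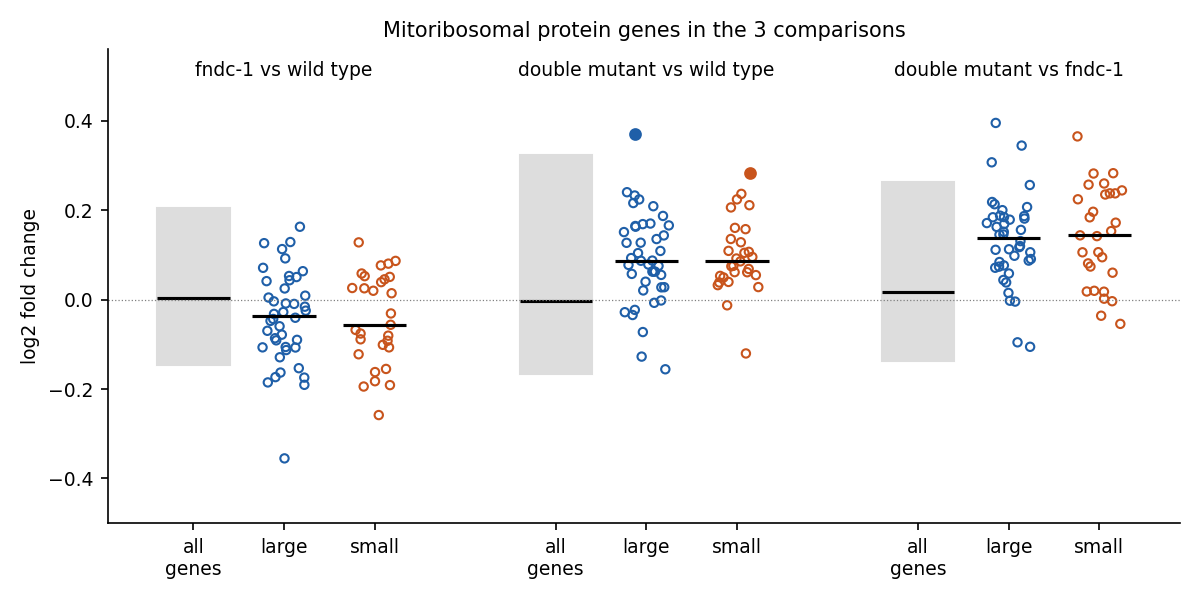
Log2 fold change on the vertical axis for each mitoribosomal protein gene in the 3 comparisons; open points did not pass the test, filled points did, horizontal bars are medians, and grey boxes span the middle 50% of all genes tested. The filled points are mrpl-30 and mrps-14 in the double mutant against wild type, and the medians are 0.09 for both subunits there and 0.14 for both against fndc-1.

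The gene mrps-5, used in worms to disturb mitochondrial translation, did not pass the test in any comparison. Its CPM was 78.2, 89.9, 81.0, 86.5 and 80.5 in wild type, 82.4, 78.8, 79.5, 90.7 and 92.0 in fndc-1, and 87.8, 85.0, 87.3, 96.9 and 84.4 in the double mutant. The 3 strains overlapped. The log2 fold change was 0.025 in fndc-1 against wild type (95% interval -0.11 to 0.16, adjusted p = 0.9259) and 0.086 in the double mutant against wild type (95% interval -0.05 to 0.22, adjusted p = 0.4434). Against fndc-1 the double mutant had a value of 0.060 (adjusted p = 0.6678).

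**Figure D4:**
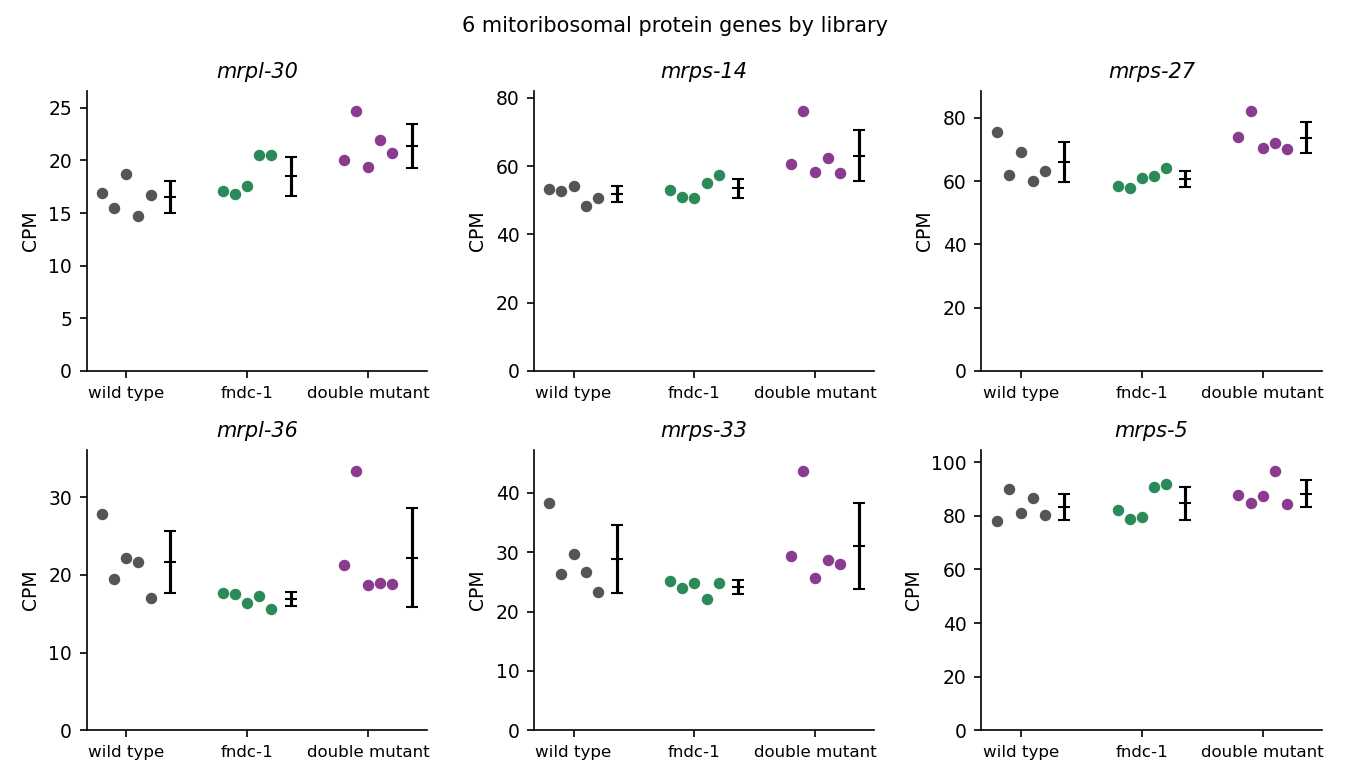
CPM in each of the 5 libraries of the 3 strains for mrpl-30, mrps-14, mrps-27, mrpl-36, mrps-33 and mrps-5, with mean and SD at the right of each strain; libraries run from 1 to 5 from left to right. The second point of the double mutant is the highest of its strain for every gene shown except mrps-5, and all double-mutant points lie above all wild-type points for mrpl-30 and mrps-14.

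The numbered family mrps-18 has 4 members in the table, mrps-18A, mrps-18B, mrps-18C and mrps-18.C. In mammals the bacterial protein S18 has several mitochondrial relatives, of which MRPS18A lies in the large subunit. In wild type the levels were 53.8 ± 6.41 CPM per kilobase for mrps-18A, 68.6 ± 4.57 for mrps-18B, 61.7 ± 2.65 for mrps-18C and 56.3 ± 8.01 for mrps-18.C (SD, n = 5), and neighbours in level did not differ beyond their SDs. None passed the test in any comparison, and 0 had an unadjusted p under 0.05. The double mutant had log2 fold changes against wild type of 0.061, 0.069, 0.028 and 0.10 in the same order, which were -0.08, -0.0048, 0.027 and -0.05 without its library 2. Against fndc-1 they were 0.14, 0.018, 0.0021 and 0.26, and without that library 0.0057, -0.05, 0.011 and 0.11. In fndc-1 against wild type they were -0.08, 0.051, 0.026 and -0.16. Exons of mrps-18A overlap those of iglr-2 by 195 bases on the same strand.

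Double-mutant library 2 was the highest of its strain for 55 of the 71 genes and the highest of all 15 libraries for 53, or 74.6%, against 18.6% of all genes tested. It exceeded the mean of the other 4 double-mutant libraries by a median log2 difference of 0.30, beside -0.05 for all genes tested. The difference was 0.30 for the large subunit and 0.28 for the small. It was larger in shorter genes. The shorter 35 genes had a median difference of 0.43 and 34 lay above 0, and the longer 35 had a median of 0.17 and 21 lay above 0. The genes at the ends were mrps-21 at 0.80 and mrpl-36 at 0.79, among the shortest, and mrps-31 at -0.76 and mrpl-45 at -0.68, the longest.

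Genes outside the mitoribosome showed the same relation in that library. All genes tested in the length range of the shorter 35 had a median difference of 0.55, and those in the range of the longer 35 a median of -0.01. Spearman's rho between the difference and the exon length was -0.85 over the 70 genes and -0.68 over the 14101 genes tested with a length, as a description of genes that share 1 library. Wild-type library 1 had a rho of -0.74 over the 70 genes against the other 4 of its strain, and wild-type library 5 one of 0.66. In the same double-mutant library the mean centred log2 CPM was 0.61 over cytosolic ribosomal protein genes, -0.75 over germline genes, -0.59 over oocyte and eggshell genes, -0.82 over intestine genes and -1.42 over body wall muscle genes. It was 0.86 over sperm genes, 0.75 over hypodermis genes and 0.64 over cuticle collagen genes. Over pharynx genes it was -1.36 and over neuron genes -0.23. The part of length, RNA quality or tissue makeup in the results was not tested.

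**Figure D5:**
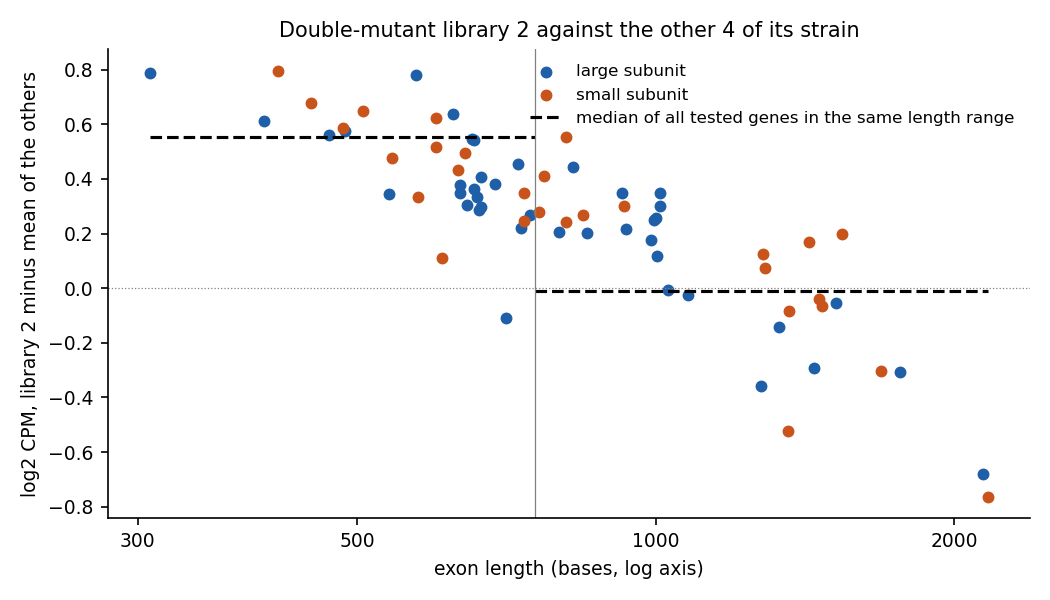
Log2 CPM in double-mutant library 2 minus the mean of the other 4 double-mutant libraries on the vertical axis, against exon length in bases on a log axis, for 70 mitoribosomal protein genes (blue large, orange small subunit). Dashed lines are medians of all tested genes in the length range of the shorter 35 (0.55) and of the longer 35 (-0.01), divided by a grey line at 755 bases; the differences run from 0.80 in mrps-21 to -0.76 in mrps-31.

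Without that library the double mutant was nearer to wild type. Of the 71 genes, 42 lay above 0 in place of 61, and the median log2 fold change was 0.031 for the large subunit and 0.022 for the small. The genes past the threshold were then mrps-14, higher, and mrpl-51, lower at -0.22 (adjusted p = 0.02918), 2 of 71 where 7.65% of all genes tested were called. CPM of mrpl-51 was 72.4, 66.2, 67.6, 64.3 and 58.6 in wild type and 58.3, 66.6, 57.5, 58.6 and 54.4 in the double mutant, where library 2 lay well within the wild-type range and the other 4 at or near its low end. Against fndc-1, 59 lay above 0 in place of 64, and the medians were 0.055 and 0.068. The count of genes higher in the double mutant with no overlap was 12 of 71 against wild type, where 6.91% of all genes did so, and 11 against fndc-1, where 3.75% did so.

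Length also went with the fold changes in 2 of the 3 comparisons. Spearman's rho between log2 fold change and exon length over the 70 genes was 0.62 in fndc-1 against wild type and -0.67 in the double mutant against fndc-1, but -0.07 in the double mutant against wild type, which was -0.33 without wild-type library 1. Without double-mutant library 2 the latter values were -0.09 and 0.55, as descriptions of genes that share the same libraries. In fndc-1 against wild type the shorter 35 genes had a median log2 fold change of -0.10 and the longer 35 one of 0.025, beside -0.09 and 0.00070 for all genes tested in the same length ranges. Without wild-type library 1 these were -0.04 and 0.017, beside -0.04 and -0.0019, and rho was 0.49. In the double mutant against fndc-1 the medians were 0.19 and 0.081, beside 0.23 and 0.021 for all genes in those ranges. With all libraries, in both comparisons the shorter mitoribosomal protein genes lay below other genes as short, and the longer ones above other genes as long. In fndc-1 against wild type the latter did not hold without fndc-1 library 5, with 0.010 beside 0.022. Nor did it hold without fndc-1 libraries 4 and 5, with -0.017 beside 0.0051. In the double mutant against wild type the medians were 0.093 and 0.079, beside 0.15 and 0.0086. Without double-mutant library 2 they were -0.04 and 0.060 against wild type and 0.068 and 0.059 against fndc-1.

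The median coefficient of variation of CPM over the 71 genes was 6.86% in wild type, 4.69% in fndc-1 and 11.7% in the double mutant. For all 3754 genes in the same CPM range it was 7.97%, 6.32% and 15.96%. Without library 2 the value for the double mutant was 5.31%, below that of wild type, and 7.57% for genes in the same CPM range. Without wild-type library 1 the values for wild type were 6.42% for the 71 genes and 6.46% for genes in the same CPM range, nearly the same. With all libraries, the mitoribosomal protein genes varied less than genes of like abundance in each strain, as a description of these libraries.

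Other genes of mitochondrial translation did not pass the test in any comparison. The translation factor genes tufm-1, tufm-2, tsfm-1 and gfm-1, of which the first pair are relatives of the bacterial elongation factor Tu, had a median log2 fold change of 0.12 in fndc-1 and 0.14 in the double mutant against wild type. For 10 mitochondrial aminoacyl-tRNA synthetase genes, which charge the transfer RNAs, the medians were -0.02 and -0.0068. For 4 genes of mitochondrial DNA replication and transcription they were -0.09 and -0.10, and for dap-3 the values were 0.052 and 0.10. None of these 19 genes was called, and the count at an unadjusted p under 0.05 was 1 in fndc-1 and 5 in the double mutant against wild type, and 2 in the double mutant against fndc-1, beside 14.9%, 21.3% and 11.4% of all genes tested. The median over all genes was 0.0034 and -0.0023 in fndc-1 and in the double mutant against wild type.

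The products of the mitoribosome are encoded by 12 protein genes of the mitochondrial genome, of which atp-6, a subunit of the ATP synthase, had 75.5 ± 24.99 CPM in wild type and 43.4 ± 4.51 in fndc-1 (SD, n = 5) and fell by 0.80 on the log2 scale (SE 0.18, adjusted p = 0.03826). The other 11 did not pass in that comparison, and none of the 12 passed in the other comparisons. At an unadjusted p under 0.05 there were 8 of the 12 in fndc-1 and 1 in the double mutant against wild type. Against fndc-1 the double mutant had 5. The shares over all genes tested were 14.9%, 21.3% and 11.4%. In fndc-1 against wild type, nduo-5 alone lay above 0, at 0.29. Wild-type library 1 had a mean centred log2 CPM of 0.76 over the 12, against -0.28 to 0.16 in the other wild-type libraries. The median log2 fold change over the 12 was -0.40 in fndc-1 and -0.17 in the double mutant against wild type. It was 0.30 in the double mutant against fndc-1. The atp-6 call was kept in 10 of 26 other settings. For comparison, 78 cytosolic ribosomal protein genes had medians of -0.01, 0.19 and 0.22 in the same order. Of the 78, 3 were called higher in the double mutant against wild type and 1 against fndc-1, beside 3.71% and 0.738% of all genes tested. Their mean centred log2 CPM was 0.61 in double-mutant library 2, against -0.062 to 0.057 in the other double-mutant libraries. The medians of these 78 genes are not given without that library.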

How the data were processed

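The authors deposited raw counts per gene for 15 libraries, without normalization. The submitters' processing notes list featureCounts of Subread 1.6.1, STAR 2.6.0c and Trimmomatic 0.36, with the build WBcel235. The strand setting of the counting is not given in the sources used here, and the labels mention a TruSeq RNA kit as well as a stranded TruSeq mRNA kit. No label says that replicates were separate cultures. The p-values thus reflect the spread between these samples, part of which may be technical.

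The test was edgeR's quasi-likelihood F-test, two-sided (edgeR 4.0.16, R 4.3.3), on the counts of all 15 libraries, with strain means, TMM factors, filterByExpr by strain and Benjamini-Hochberg adjustment over 15032 genes, at a threshold of 0.05. Intervals are 95% and use the t quantile. CPM came from edgeR with the TMM factors, and log2 CPM per library used a prior count of 2. CPM per kilobase divided by the union exon length in Ensembl 115. Scores are means of log2 CPM centred on the 15 libraries. The strains do not overlap for a gene where the lowest CPM of one exceeds the highest of the other. Replicates were compared by a chi-square over genes with at least 50 counts, and the lowest value was 8.07 per gene, far above sampling noise.

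The genes, lists and tests were chosen with earlier results of these data known. Named genes were those past the threshold, the 3 largest rises and falls per subunit where fewer than 4 passed, the 4 highest and 3 lowest levels per subunit, mrps-5 and the mrps-18 family. Genes whose strains did not overlap, neighbouring genes and those most apart in double-mutant library 2 were named after their values were seen, as were the split by length and the division into bacterial and mitochondria-specific proteins. Alternatives were DESeq2 1.42.0, limma-voom (limma 3.58.1), scaling by RLE or by upper quartiles, no filter, a filter of 1 CPM in 5 libraries, fits of 2 strains, the replicate number as a block, and leaving out libraries, of which the variation within strains and the length relation without single libraries were chosen after seeing the data. The fit was tested on simulated data. Sequences of these genes are not printed, since no sequence was used here.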

Additional observations from a re-analysis of the deposited data

Results flagged for a closer look

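Among 5 libraries of a strain, a library was singled out where the gap to its nearest neighbour exceeded 0.71 of the strain's whole range. Chance singles out about 1 in 20 groups of values. Of 48 groups examined for the sums, scores and genes shown, which share libraries, 7 were singled out. Double-mutant library 2 was the highest and stood apart for the summed CPM of the large subunit, at 1989 against 1640 to 1733 in the other 4 (gap over range 0.732). It also stood apart for the mean centred log2 CPM of the shorter 35 genes, at 0.44 against -0.04 to 0.073 (0.765). The single genes were mrpl-36 at 33.4 against 18.7 to 21.2 CPM (0.827), mrpl-47 at 60.7 against 46.97 to 48.6 (0.879), mrps-14 at 76.1 against 58.1 to 62.3 (0.768) and mrps-33 at 43.8 against 25.7 to 29.3 (0.80). For mrps-5, double-mutant library 4 was the highest, at 96.9 against 84.4 to 87.8 CPM (0.728).

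Over all 71 genes, double-mutant library 2 stood apart as the highest of its strain for 24 and as the lowest for 4. Double-mutant library 4 did so for 1 gene and wild-type library 3 for 3. Together these were 32 of the 213 groups of the 71 genes in 3 strains. No fndc-1 library stood apart for any of them, but this rule cannot single out 2 libraries that lie together. Summed CPM of the large subunit was 1686 and 1696 in fndc-1 libraries 4 and 5, against 1552 to 1581 in libraries 1 to 3. The chi-square per gene was 8.07 to 18.9 among fndc-1 libraries 1 to 3 and 16.4 between libraries 4 and 5. Between these 2 groups it was 60.5 to 89.1.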

How the results depend on the processing

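No mitoribosomal protein gene was called in fndc-1 against wild type except mrpl-39, 1 gene and lower, without double-mutant libraries 2 and 4. The 2 calls in the double mutant against wild type became 0 with RLE factors, with no filter, with only the 2 strains compared, without double-mutant libraries 2 and 4 and without wild-type libraries 2 and 4. They became 1 with limma-voom and without fndc-1 libraries 4 and 5, and 4 with DESeq2. Leaving out single libraries gave 0 to 2 calls there, 0 to 1 against fndc-1 (mrps-27, without wild-type library 1) and 0 in fndc-1 against wild type. DESeq2 called 1 gene, mrps-27, against fndc-1. The cause was not tested. Medians kept their sign in the settings run for large and small subunit, and upper-quartile factors raised those against wild type to 0.18 for both subunits, 0.1832 and 0.1792. Genes with strains not overlapping numbered 13 against wild type and 16 against fndc-1 without double-mutant libraries 2 and 4, where 8.17% of all genes were higher and 4.89% lower against wild type and 6.46% and 3.43% against fndc-1. In that setting 40 of the 71 genes lay above 0 against wild type.

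Over all genes tested, calls in fndc-1 against wild type went from 281 to 784 with DESeq2, 575 with only these strains, 1116 without double-mutant libraries 2 and 4 and 115 without wild-type libraries 2 and 4, and leaving out single libraries gave 146 to 736. In the double mutant against wild type they went from 708 to 1372 with DESeq2, 275 with only these strains and 1068 without wild-type libraries 2 and 4, with 397 to 1157 when single libraries were left out. Against fndc-1 they went from 147 to 363 with DESeq2.

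With the replicate number as a block, calls over all genes in fndc-1 against wild type were 155, and mitoribosomal calls in the double mutant against wild type were 0. Same-numbered libraries had correlations of deviations from -0.591 to 0.664, with 7 of 15 pairs over 0.1 and 3 best with their own number. For number 4 the correlations were 0.43, 0.539 and 0.664 in the 3 comparisons. Whether samples of the same number were prepared together cannot be told from these values.

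The large to small ratio in wild type, fndc-1 and the double mutant was 1.245, 1.241 and 1.239 without division by length, and 0.941, 0.943 and 0.935 as a ratio of medians. It was 1.286, 1.283 and 1.273 with dap-3 counted in the small subunit, and 1.491, 1.494 and 1.473 with mrps-30 and mrps-18A counted in the large subunit as in mammals.

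Among the named genes, signs changed for uncalled genes. In fndc-1 against wild type, mrps-5 was -0.023 and mrps-18C -0.020 without fndc-1 libraries 4 and 5. In the double mutant against wild type, upper-quartile factors gave mrpl-48 0.022 and mrps-35 0.054. mrps-35 was 0.0017 with no filter and 0.0045 with only these strains. Without double-mutant libraries 2 and 4 it was 0.079, mrps-18.C was -0.040, mrps-18A -0.11 and mrps-18B -0.059. With single libraries left out the ranges were -0.056 to 0.060 for mrps-35, -0.050 to 0.17 for mrps-18.C, -0.084 to 0.12 for mrps-18A, -0.0048 to 0.11 for mrps-18B and -0.0062 to 0.055 for mrps-18C.

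In the double mutant against fndc-1, mrps-18B and mrps-18C were -0.0073 and -0.023 with RLE factors, -0.0071 and -0.023 with DESeq2, and -0.018 and -0.033 with only these strains. mrps-18C was -0.0035 with the filter of 1 CPM in 5 libraries and -0.0061 without wild-type libraries 2 and 4. Upper-quartile factors gave mrpl-46 0.051, mrps-26 0.011, mrps-31 0.0075 and mrps-15 0.067, and no filter gave mrps-15 0.0018. Without double-mutant libraries 2 and 4, mrpl-46 was 0.019, mrps-31 0.043, mrps-18A -0.023, mrps-18B -0.10 and fndc-1 -0.0071. Without fndc-1 libraries 4 and 5, mrpl-46 was 0.048 and mrps-15 0.0037. With single libraries left out the ranges were -0.0071 to 0.15 for fndc-1, -0.038 to 0.053 for mrpl-46, -0.037 to 0.016 for mrps-15, -0.046 to 0.042 for mrps-18B, -0.022 to 0.031 for mrps-18C and -0.089 to 0.080 for mrps-31.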
